A study of Mus musculus with 7 samples.

Results

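The genes described here encode the machinery that loads peptides onto MHC class II molecules and presents them to CD4+ T cells. Members were the rows of the deposited table whose symbol is H2-Aa, H2-Ab1, H2-Eb1, H2-DMa, H2-DMb1, H2-DMb2, H2-Oa, H2-Ob, Cd74 or Ciita, and all 10 of 10 were found among 21176 genes. RNA sequencing measured them in FDCs (follicular dendritic cells), the stromal cells that display intact antigen to B cells inside the follicle. The 7 samples were 4 from wild-type (WT) and 3 from Ngfr KO mice, which lack the low-affinity neurotrophin receptor p75. Per the labels and the series' design text, all mice were male, 8 to 12 weeks old and not immunized, FDCs were isolated from popliteal lymph nodes by cell sorting, and each sample pooled nodes of several animals. The strain, the Ngfr allele and the sorting markers are not given in the sources used here.

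Class II molecules are pairs of an alpha and a beta chain. H2-Aa and H2-Ab1 encode the chains of the I-A molecule, and H2-Eb1 the beta chain of I-E. In the endoplasmic reticulum the pair binds the invariant chain, the product of Cd74, which blocks the peptide groove. In the endosome the invariant chain is cut down to a short remnant, and the H2-DM heterodimer (H2-DMa with H2-DMb1 or H2-DMb2) exchanges that remnant for antigenic peptide. H2-DO (H2-Oa and H2-Ob), found mainly in B cells, restrains H2-DM. Ciita encodes the transactivator that switches these genes on through proteins bound to the shared X and Y boxes of their promoters. B cells and dendritic cells make class II constitutively, many stromal cells make it after interferon-gamma, and FDCs are also known to carry class II protein taken up from B cells.

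The shared promoter elements are shown first because they are what ties these genes to Ciita. Of the members, 7 have promoters in the RefSeq table used (GRCm38.p6, 250 bases before to 50 bases after the annotated start, 8 promoters in all). H2-Ab1, Cd74 and Ciita had no entry there, so their promoters were not examined. All 7 genes held the Y-box core GATTGG on either strand in at least 1 promoter, in 7 of 8 promoters, against 16.1% of 32851 mouse promoters of that length. The X-box core ACNGATG was found on either strand in 5 of 8, against 9.85%. The X core followed by the Y core on the sense strand, with at most 30 bases between them, stood in 3 of 8 (H2-Eb1, H2-DMb1 and H2-DMb2, with 21, 22 and 22 bases between) and in 0.0335% of all promoters. The windows below run from 50 bases before the Y core to 10 bases after it, on the gene's own strand, with matches to either core in capitals. They lie at chr17:34305757-34305822 (plus strand, H2-Eb1), chr17:34145108-34145173 (plus strand, H2-DMb2), chr17:34238797-34238862 (plus strand, H2-Ob) and chr17:34287857-34287922 (minus strand, H2-Aa), outside annotated exons.
H2-Eb1: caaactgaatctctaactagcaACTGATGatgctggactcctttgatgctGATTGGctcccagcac
H2-DMb2: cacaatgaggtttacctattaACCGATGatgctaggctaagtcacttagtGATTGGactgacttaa
H2-Ob: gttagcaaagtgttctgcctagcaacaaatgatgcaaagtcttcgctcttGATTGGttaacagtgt
H2-Aa: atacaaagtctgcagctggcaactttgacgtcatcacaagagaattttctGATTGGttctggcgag
In the H2-Ob and H2-Aa windows the letters upstream of the Y core did not match ACNGATG. The X core counted for H2-Aa lay outside its window, antisense, 232 bases before the start. In H2-Oa the X core lay 137 and the Y core 44 bases before the start. The only Y core of H2-DMa lay 199 bases before the start, with no X core. A match is a description of the letters and not a measured binding site.

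Libraries held 17244925 to 21538400 reads, recovered from the deposited values, with the Ngfr KO libraries all above the WT ones. Values are the authors' TMM-scaled signal, in which 1 is worth 230.1 to 294.8 reads. Ngfr itself was 0.377, 0.677, 1.30 and 1.14 in WT replicates 1 to 4 and 0.305, 0.353 and 0.184 in Ngfr KO replicates 1 to 3, lower in every Ngfr KO sample but not absent. Its log2 change was -0.52 (limma adjusted p = 0.0432), and edgeR on the reads gave an adjusted p of 0.0574. That call was lost in 12 of 19 alternatives, with the change between -1.57 and -0.15 over all of them. The sorted cells carried all 19 listed FDC markers, 16 of them called higher in Ngfr KO, led by Madcam1, Mfge8 and Coch. All 15 listed endothelial markers were also present and called lower in Ngfr KO. Their summed signal was 257 to 386 in WT against 50 to 101 in Ngfr KO. Beside these counts, limma called 18.3% of the 8326 tested genes higher and 15.8% lower.

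Of the 10 members, 3 rose in Ngfr KO and 0 fell, and the rest did not pass the test. The genes that rose were H2-Ab1, H2-Eb1 and H2-DMb1. H2-Ab1 showed the largest rise, 2.85-fold between group means. In these bulk samples, a different number of class II-bearing cells and a different amount of class II RNA per cell cannot be told apart. Across all genes, 34.2% of 8326 tested were called, 18.3% higher and 15.8% lower (limma on log2(value + 1), adjusted p under 0.05). All members but H2-Oa and Ciita passed the filter on low values. The median log2 change of the 8 that passed was 0.59, beside 0.02 over all genes tested. A quasi-likelihood test with edgeR on the recovered reads called the same 3 members of 10 higher and 0 lower, where it called 8.67% of 16751 genes higher and 6.55% lower.

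**Figure D1:**
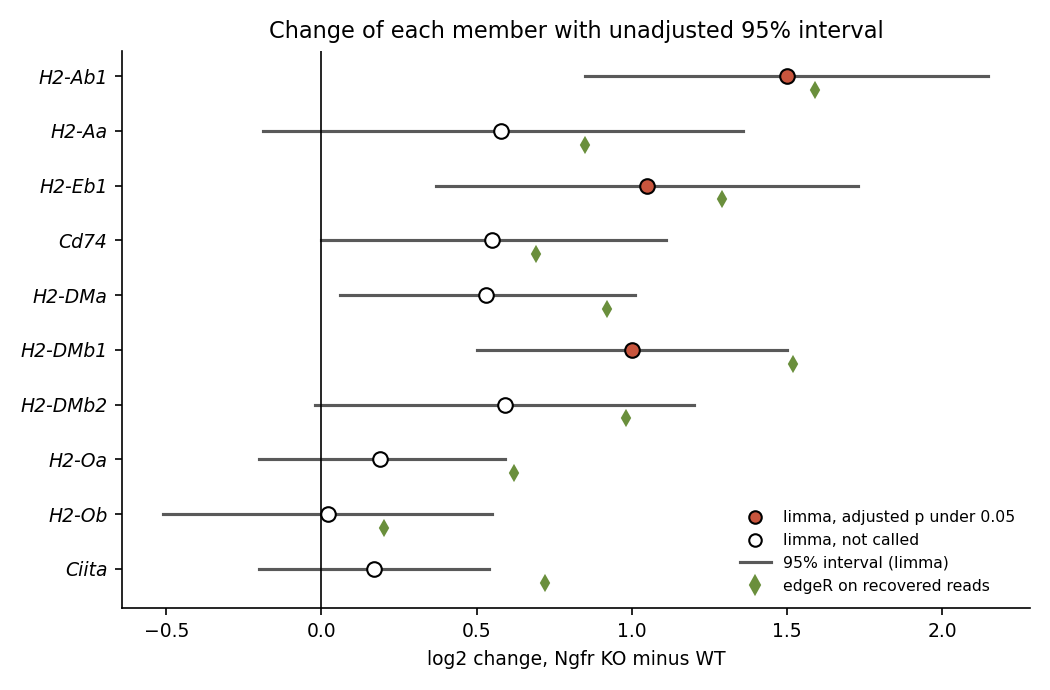
Log2 change of each member, Ngfr KO minus WT, with its unadjusted 95% interval from limma on log2(value + 1) (circles, filled where the adjusted p is under 0.05), and the edgeR estimate on recovered reads (diamonds). H2-Ab1, H2-Eb1 and H2-DMb1 are filled, and all 10 diamonds lie to the right of 0.

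Of the 3 genes for chains of the class II pair, 2 were called. H2-Ab1 (ENSMUSG00000073421, chromosome 17, 34257689 to 34269419, plus strand) encodes the I-A beta chain. Its value was 11, 27.8, 21.9 and 24.1 in WT replicates 1 to 4 and 53.8, 81.0 and 46.2 in Ngfr KO replicates 1 to 3. The groups did not overlap, and the lowest Ngfr KO sample stood well above the highest WT sample. The means were 21.2 ± 7.3 (SD, n = 4) and 60.3 ± 18.3 (SD, n = 3), and limma put the log2 difference at 1.5 with an SE of 0.30 (adjusted p = 0.00324). The exact permutation test, two-sided over 35 splits, returned its smallest possible p, 0.0286. H2-Ab1 was called under all 20 alternatives that were run, with log2 changes from 1.19 to 1.67.

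H2-Aa (ENSMUSG00000036594, chromosome 17, 34282744 to 34287823, minus strand), the alpha chain that pairs with H2-Ab1, was 9.93, 20.6, 11.5 and 10.6 in WT and 18.1, 38.1 and 10.4 in Ngfr KO. Ngfr KO replicate 3 lay inside the WT range, below 3 of the 4 WT samples. The log2 change of 0.58 (SE 0.36, limma adjusted p = 0.217) had a 95% interval from -0.19 to 1.36, which still contains a change of more than 1. The size rested on single samples. Without Ngfr KO replicate 3 it was 1.01 and H2-Aa was called (limma adjusted p = 0.0384), and without Ngfr KO replicate 2 it was 0.12 (adjusted p = 0.801).

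H2-Eb1 (ENSMUSG00000060586, chromosome 17, 34305867 to 34316674, plus strand), the I-E beta chain, was 3.78, 10.2, 5.83 and 6.30 in WT and 11.1, 23.9 and 9.95 in Ngfr KO. The groups overlapped where WT replicate 2 lay just above Ngfr KO replicate 3. H2-Eb1 was higher by 1.05 on the log2 scale (SE 0.31, limma adjusted p = 0.0227). This call rested on single samples: without WT replicate 1 the limma adjusted p was 0.0591, and without Ngfr KO replicate 2 it was 0.108, with the log2 change down to 0.68. It was also lost without a filter (adjusted p = 0.102), with array weights (0.0731, log2 change 0.56) and with the trend against exon length removed (0.0553). The related beta-chain gene H2-Eb2 was near the floor, from 0.00435 to 0.256 in the 7 samples.

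**Figure D2:**
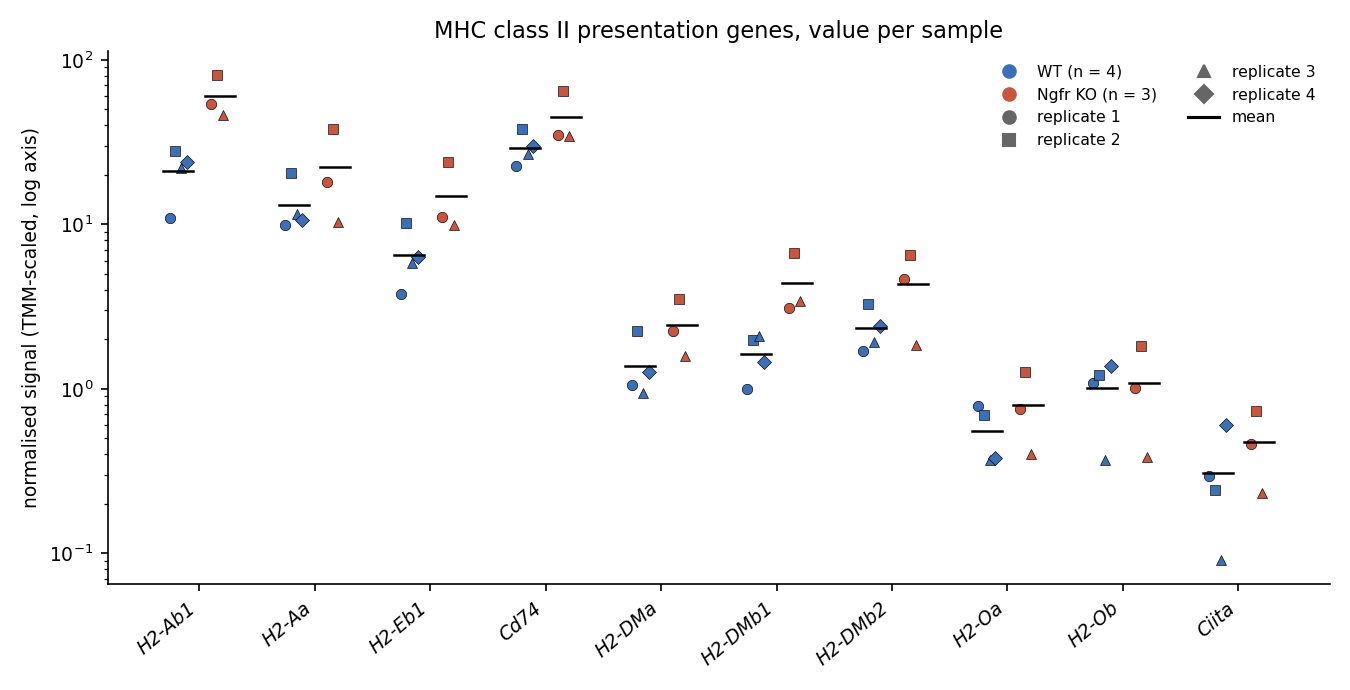
Deposited TMM-scaled signal of each member in every sample, on a log axis. Blue symbols are WT, red symbols Ngfr KO, the symbol shape is the replicate number and the bar is the group mean. The red symbols of H2-Ab1 and H2-DMb1 all lie above the blue ones, and in every member the highest symbol is the square of Ngfr KO replicate 2.

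Cd74 (ENSMUSG00000024610, chromosome 18, 60803848 to 60812652, plus strand), the invariant chain, was the most abundant member per exon length. It had values of 22.7, 38.1, 26.7 and 29.9 in WT and 35, 65.0 and 34.4 in Ngfr KO. WT replicate 2 lay above 2 of the 3 Ngfr KO samples. By limma the log2 change was 0.55 (SE 0.26, 95% interval -0.00 to 1.11, adjusted p = 0.109). Cd74 was called under none of 20 alternatives (adjusted p from 0.0641 to 0.439), with a change of 0.26 without Ngfr KO replicate 2.

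Set against the invariant chain within each sample, H2-Ab1 again stood apart and H2-Aa did not. The ratio of H2-Ab1 to Cd74 was 0.483, 0.730, 0.820 and 0.807 in WT and 1.54, 1.25 and 1.34 in Ngfr KO. The ratio of H2-Eb1 to Cd74 ran from 0.167 to 0.267 in WT and from 0.289 to 0.368 in Ngfr KO, also without overlap. That of H2-Aa to Cd74 overlapped, at 0.356 to 0.540 against 0.302 to 0.586. The 2 chains of I-A therefore stood at different ratios to each other: H2-Ab1 to H2-Aa was 1.10, 1.35, 1.91 and 2.27 in WT and 2.98, 2.13 and 4.45 in Ngfr KO, overlapping at WT replicate 4 and Ngfr KO replicate 2. These ratios are descriptions and were not tested.

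**Figure D3:**
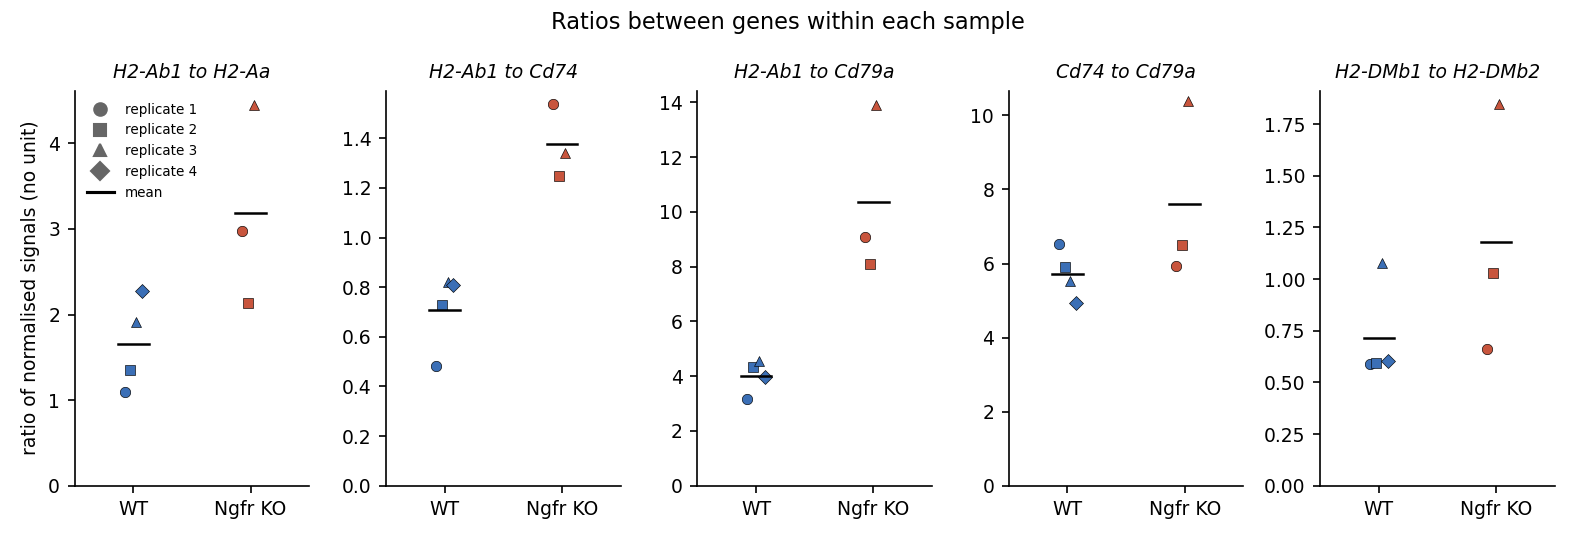
Ratios of normalised signals within each sample, with no unit, for 5 gene pairs. Symbols are samples, the shape is the replicate number and the bar is the group mean. H2-Ab1 to Cd74 and H2-Ab1 to Cd79a do not overlap between WT and Ngfr KO, whereas the other 3 ratios do.

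Of the genes for H2-DM, the peptide exchange factor, only 1 was called. H2-DMb1 (ENSMUSG00000079547, chromosome 17, 34153072 to 34160230, plus strand), one of 2 beta chains, was 1.00, 1.97, 2.09 and 1.45 in WT and 3.10, 6.73 and 3.41 in Ngfr KO, with no overlap between the groups. The estimate by limma was a log2 change of 1.00 (SE 0.23, adjusted p = 0.00703). On recovered reads, which are not damped by the pseudocount, edgeR gave 1.52 (adjusted p = 0.0170). H2-DMb1 was called under all 19 alternatives that tested it, with the smallest change, 0.49, at a pseudocount of 5. Among tested genes, 22.6% had every Ngfr KO sample above every WT sample, and 2 of the 8 tested members did, H2-DMb1 and H2-Ab1.

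H2-DMb2 (ENSMUSG00000037548, chromosome 17, 34143307 to 34151555, plus strand), the neighbouring beta-chain gene, was 1.70, 3.30, 1.94 and 2.41 in WT and 4.68, 6.5 and 1.84 in Ngfr KO. Ngfr KO replicate 3 was lower than 3 of the 4 WT samples, while the other 2 exceeded all of them. The log2 change was 0.59 (SE 0.28, 95% interval -0.02 to 1.2, limma adjusted p = 0.120). Without Ngfr KO replicate 3 it was 0.99 (adjusted p = 0.00908), and without Ngfr KO replicate 2 it was 0.29 (0.468). With array weights H2-DMb2 was called at 0.57 (adjusted p = 0.0206).

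The 2 beta-chain genes are close copies, so how reads were split between them is uncertain. Their reference transcripts had 1185 identical and 70 mismatched aligned bases (94.4% identity), and 22.65% of the 50-base stretches of H2-DMb1 transcripts also occur in H2-DMb2. No other pair of members shared such stretches. The ratio of H2-DMb1 to H2-DMb2 was 0.588, 0.596 and 0.602 in WT replicates 1, 2 and 4 but 1.08 in WT replicate 3. In Ngfr KO it was 0.663, 1.03 and 1.85. The ratio thus varied about as widely within a genotype as between genotypes.

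H2-DMa (ENSMUSG00000037649, chromosome 17, 34119541 to 34139101, plus strand), the alpha chain of H2-DM, was 1.05, 2.25, 0.939 and 1.27 in WT and 2.26, 3.52 and 1.59 in Ngfr KO. WT replicate 2 was the only WT sample inside the Ngfr KO range. The log2 change was 0.53 (SE 0.22, 95% interval 0.06 to 1.01, limma adjusted p = 0.0766), short of the threshold. It was called without WT replicate 2 (adjusted p = 0.0314) or without Ngfr KO replicate 3 (0.0389), while without Ngfr KO replicate 2 the change was 0.32 (0.319). Exons of H2-DMa share 360 bases with Brd2 on the other strand, and the cDNA kit named in the labels does not mark strand.

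The H2-DO genes and Ciita were low in all samples. H2-Ob (ENSMUSG00000041538, chromosome 17, 34238903 to 34254414, plus strand) was 1.08, 1.22, 0.369 and 1.37 in WT and 1.02, 1.83 and 0.388 in Ngfr KO, and each genotype had 1 sample well below the rest. Its log2 change was 0.02 (SE 0.24, 95% interval -0.51 to 0.55, limma adjusted p = 0.954). The direction was not stable, with -0.15 without WT replicate 3 and -0.23 without Ngfr KO replicate 2.

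H2-Oa (ENSMUSG00000024334, chromosome 17, 34092340 to 34095234, plus strand), covered by 85 to 372 reads, was 0.790, 0.692, 0.369 and 0.381 in WT and 0.751, 1.26 and 0.4 in Ngfr KO. The groups overlapped almost entirely. It was below the filter; with the low members added to the limma fit it differed by 0.19 (SE 0.18, adjusted p = 0.421), and edgeR gave 0.62 (adjusted p = 0.396). Relative to H2-DMa, whose product it opposes as part of H2-DO, H2-Ob was 0.394 to 1.08 in WT against 0.244 to 0.521 in Ngfr KO, with overlap. Exons of H2-Oa share 321 bases with the antisense gene BC051537, and the kit does not mark strand. Some of the H2-Oa reads could therefore belong to BC051537.

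Ciita (ENSMUSG00000022504, chromosome 16, 10480059 to 10528418, plus strand), the transactivator, had 21 to 158 reads in WT and 58 to 217 in Ngfr KO. Its values were 0.296, 0.243, 0.0913 and 0.603 in WT and 0.461, 0.736 and 0.232 in Ngfr KO, with overlapping groups. By limma the log2 change was 0.17 (SE 0.17, adjusted p = 0.441), a scale on which the pseudocount exceeds every value. On reads, edgeR gave 0.72 (adjusted p = 0.487). Ciita shares 329 exon bases with Dexi on the opposite strand, so some of these few reads could belong to that gene.

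Per kilobase of merged exons the order of levels in WT was Cd74 (17.5 ± 3.9, SD, n = 4), H2-Ab1 (8.26 ± 2.83), H2-Aa (3.46 ± 1.31), H2-Eb1 (3.36 ± 1.38), H2-DMb2 (1.34 ± 0.40), H2-DMb1 (0.969 ± 0.299), H2-DMa (0.399 ± 0.173), H2-Oa (0.397 ± 0.153), H2-Ob (0.187 ± 0.082) and Ciita (0.0323 ± 0.0225). Neighbours whose samples did not overlap were Cd74 and H2-Ab1, H2-Eb1 and H2-DMb2, H2-Oa and H2-Ob, and H2-Ob and Ciita. The remaining neighbours overlapped. In Ngfr KO, H2-Ab1 (23.5 ± 7.1, SD, n = 3) reached the level of Cd74 (26.7 ± 10.4), and their samples overlapped. H2-Ab1 lay apart from the next member, H2-Eb1 (7.71 ± 4.00).

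The Ngfr KO samples came in nearly the same order for all members, while the order of the WT samples depended on the gene. Ngfr KO replicate 2 had the highest value of all 7 samples for 10 of 10 members, and Ngfr KO replicate 3 was the lowest Ngfr KO sample for 9 of 10. In WT, replicate 2 was the highest sample for 6 members, and the lowest was replicate 1 for 6 and replicate 3 for 4. Ngfr KO replicate 2 exceeded the mean of the other 2 Ngfr KO samples 1.62-fold for H2-Ab1 and 2.68-fold for H2-Aa, the ends of the range over the 10 members.

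**Figure D4:**
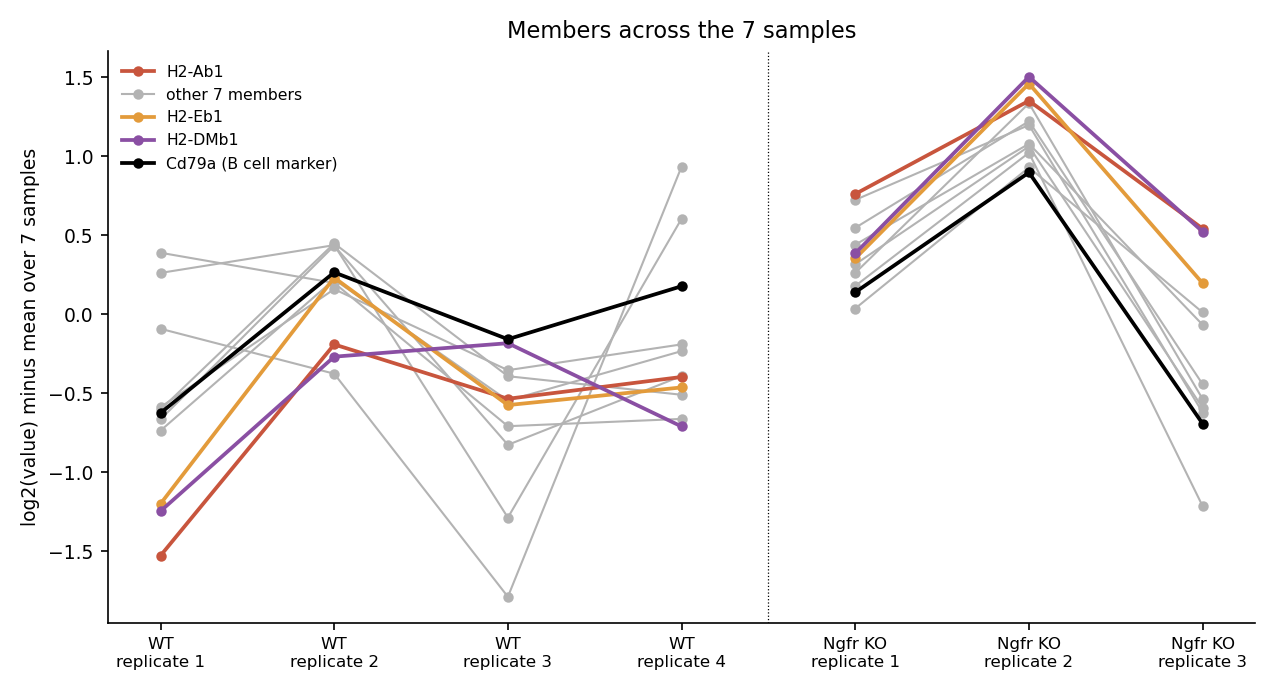
Log2 of the deposited value minus its mean over the 7 samples, for the 10 members and the B cell marker Cd79a, with a dotted line between genotypes. Lines only link the points of 1 gene within a genotype. The members and Cd79a all peak in Ngfr KO replicate 2, and in Ngfr KO replicate 3 H2-Ab1, H2-DMb1 and H2-Eb1 stay above 0 while Cd79a has its lowest value there.

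B cells carry high levels of class II RNA and surround FDCs, so their markers were read in the same samples. Of 17 B cell markers measured, 12 were tested, with 3 called higher and 0 lower, where 18.3% of all tested genes were called higher, and with a median log2 change of 0.20. Those called were Blnk, Cd72 and Ms4a1, and edgeR did not call Ms4a1 (adjusted p = 0.0693). Blnk and Cd72, signalling molecules of B cells, did not overlap between genotypes. Cd79a, a chain of the B-cell receptor complex, was 3.48, 6.45, 4.81 and 6.07 in WT and 5.91, 10 and 3.32 in Ngfr KO. It had the same highest sample as the members, and its groups overlapped (log2 change 0.18, limma adjusted p = 0.629). The summed signal of all 17 markers overlapped, at 39.3 to 214 in WT against 50.5 to 117 in Ngfr KO, with Igkc at 179.7 in WT replicate 3. Leaving out the immunoglobulin genes, it was 21.7 to 36.2 in WT against 38.6 to 77.2 in Ngfr KO. With Blnk left out as well, it overlapped again, at 19.3 to 28.6 against 20.8 to 49.0. Blk, Cd22 and Pax5 stayed below 1 in every sample.

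Relative to Cd79a, H2-Ab1 was 3.15, 4.32, 4.55 and 3.97 in WT and 9.10, 8.09 and 13.9 in Ngfr KO, without overlap. Cd74 relative to Cd79a was 6.52, 5.91, 5.54 and 4.93 in WT and 5.92, 6.5 and 10.4 in Ngfr KO, with overlap. Separation from Cd79a was not particular to H2-Ab1. The ratios of H2-Eb1, H2-DMb1, H2-DMb2 and H2-DMa to Cd79a did not overlap either. For H2-DMa the groups nearly touched, at 0.195 to 0.349 in WT against 0.351 to 0.480 in Ngfr KO. The ratios of H2-Aa, H2-Oa, H2-Ob and Ciita to Cd79a overlapped. With the mean of the 12 tested B cell markers as a covariate, the 3 members were still called. Their log2 changes were then 1.19 for H2-Ab1 (limma adjusted p = 0.00655), 0.68 for H2-Eb1 (0.0478) and 0.76 for H2-DMb1 (0.0171). That mean itself includes Blnk, Cd72, Ms4a1 and the immunoglobulin genes.

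Dendritic cells and macrophages, the other constitutive class II producers, were read in the same way. Of 20 such genes measured, 10 stayed below 1 in all samples, among them the integrin Itgax (at most 0.0749), the growth factor receptor Flt3 and the chemokine receptor Xcr1. The summed signal of the list was 12.7 to 31.2 in WT against 16.1 to 36.7 in Ngfr KO, with overlap. Lyz2 was called higher (log2 change 1.70, limma adjusted p = 0.0336) and the macrophage mannose receptor Mrc1 lower (-1.55, adjusted p = 0.0410), and edgeR called neither. Flt3 was higher in every Ngfr KO sample (0.216 to 0.427) than in any WT sample (at most 0.101), and edgeR did not call it (adjusted p = 0.0823). Lyz2, the lysozyme of myeloid cells, reached 28.1 in Ngfr KO replicate 3, the sample with the lowest Ngfr KO value of 9 members. The dendritic cell lectin Cd209a was 1.67 in Ngfr KO replicate 2, where the members peaked, and at most 0.255 elsewhere. The part of these cells in the class II values was not tested.

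The other genes of the pathway were taken from lists of transcription factors, processing enzymes and costimulators. Among factors that act on class II promoters, Nfyc, a subunit of the Y-box factor NF-Y, was called higher (log2 change 0.46, limma adjusted p = 0.0360), though not by edgeR (adjusted p = 0.0505). Of the X-box subunits of the RFX complex, Rfxank and Rfx5 were low, with Rfxank at 0.7 to 0.969 in the 7 samples. Rfx5 was 0.794 to 1.45 in WT against 0.634 to 0.737 in Ngfr KO, without overlap, and edgeR did not call it (adjusted p = 0.201). Irf1, an interferon-response factor, had a log2 change of 0.21 (limma adjusted p = 0.715), and its WT replicate 3 was at 33.9 against 6.78 to 8.24 in the other WT samples and 12.0 to 13.9 in Ngfr KO.

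Of the genes of antigen processing in the endosome, 7 of 14 tested were called higher in Ngfr KO and 0 lower, where 18.3% of all tested genes were called higher. Their median log2 change was 0.71, beside 0.02 over all genes tested. Ifi30, the thiol reductase that opens disulfide bonds of antigens, was 1.14, 3.66, 3.16 and 4.05 in WT and 12.3, 14.0 and 13.7 in Ngfr KO. This was a log2 change of 1.91 (SE 0.26) with a limma adjusted p of 5.11e-04. The protease gene Ctsh was 21.6, 64.5, 89.2 and 79.9 in WT and 182.2, 246.3 and 196.4 in Ngfr KO, with a log2 change of 1.86 by limma (SE 0.40, adjusted p = 0.00496). Neither gene overlapped between genotypes, and neither had Ngfr KO replicate 3 as its lowest Ngfr KO sample. Ctsb, Cd63, Ctsz, Cd82 and Sppl2a, the protease that removes the last membrane stub of the invariant chain, made up the rest, with log2 changes from 0.70 to 1.12.

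Ctss, the cathepsin that trims the invariant chain in B cells and dendritic cells, was 15.2 to 18.6 in WT against 14.2 to 18.6 in Ngfr KO. Its log2 change was -0.01 (95% interval -0.38 to 0.36, limma adjusted p = 0.968). Ctsl, the cathepsin with that role in thymic epithelium, had a log2 change of -0.18 (95% interval -0.67 to 0.31, adjusted p = 0.550). March1, the ubiquitin ligase that removes class II from the surface, stayed at 0.0343 to 0.777 and was not tested by limma.

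Of the costimulatory molecules and class II partners, 4 of 9 were tested, 3 were called higher and 1 lower. Of all tested genes, 18.3% were called higher and 15.8% lower. The 5 not tested stayed below 1 in every sample. Cd40 was 0.572 to 1.07 in WT against 3.65 to 5.64 in Ngfr KO, 1.67 higher on the log2 scale (SE 0.17, limma adjusted p = 1.53e-04). Cd80 was 0.144 to 0.487 in WT against 1.58 to 2.18 in Ngfr KO, 1.16 higher on that scale (SE 0.15, limma adjusted p = 4.26e-04). Fcer2a, the low-affinity IgE receptor found on FDCs and B cells, rose by 3.13 on that scale (limma adjusted p = 3.57e-04). Cd80 in all WT samples, and Cd40 in all but WT replicate 4, were below 1. Both therefore passed the limma filter only because of their Ngfr KO samples. On the recovered reads, edgeR called both higher (adjusted p = 0.00202 for Cd40 and 0.00453 for Cd80). Cd274, which encodes the inhibitory ligand PD-L1, fell by 0.60 on the log2 scale (limma adjusted p = 0.0282). The edgeR test did not call Cd274 (adjusted p = 0.0756). Cd86 was at 0.0973 to 0.526 in all samples, with overlapping groups.

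**Figure D5:**
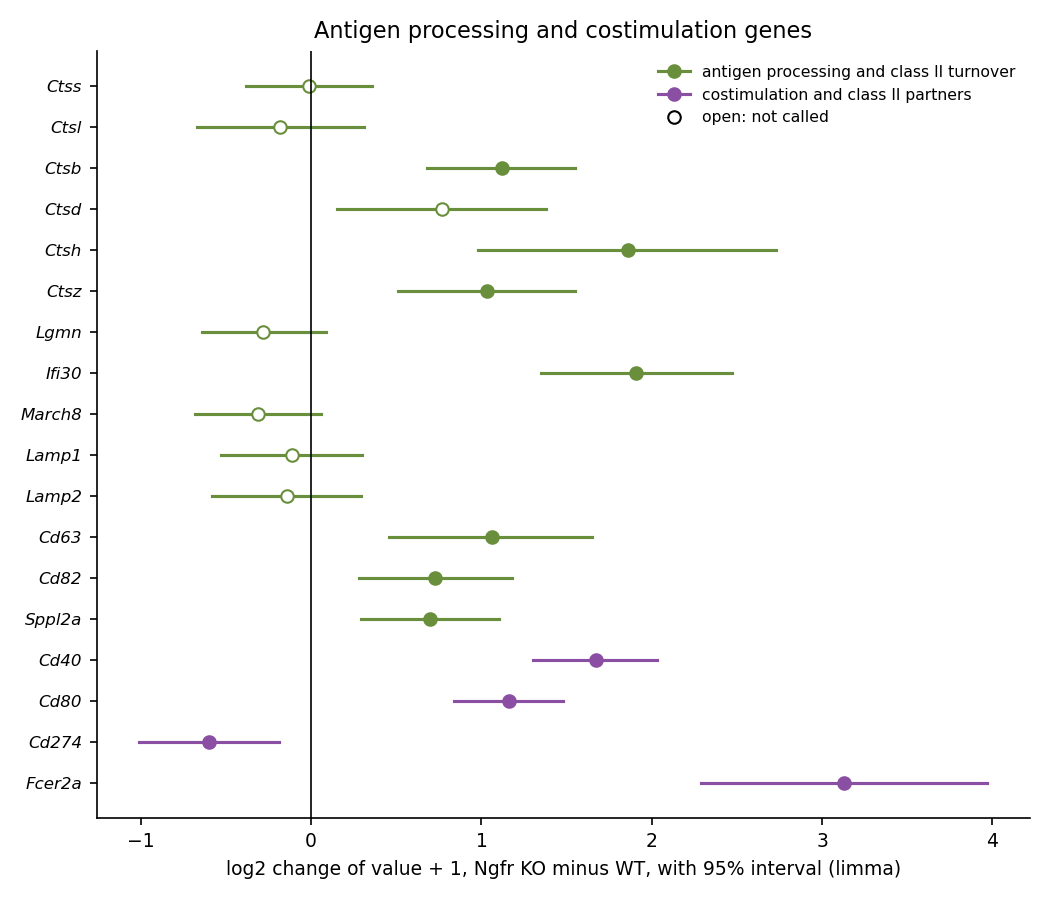
Log2 change of value + 1, Ngfr KO minus WT, with unadjusted 95% intervals from limma, for the tested genes of 2 lists (antigen processing in green, costimulation and partners in purple). Filled circles passed the adjusted threshold. Ifi30 and Ctsh lie furthest right among the processing genes, and Ctss and Ctsl straddle 0.

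The genes whose sample-to-sample pattern was most like that of the class II chains were ranked by Pearson's r between deviations from the genotype means, over the 7 samples, against the mean deviation of Cd74, H2-Aa, H2-Ab1 and H2-Eb1. The first 10 of 8318 tested non-members were Muc15, Tmem192, Prmt5, Fam234a, Mrpl3, Pcmt1, Arsb, Dirc2, Ggcx and Slc38a1, with r from 0.955 to 0.993. All 10 had their highest value in Ngfr KO replicate 2, which the choice by this pattern favours, since the class II chains peak there. Of the 10, 6 were called higher in Ngfr KO, where 18.3% of all tested genes were. Muc15 passed the filter only through its Ngfr KO samples. None of the 10 is on the B cell list, but only 12 B cell markers were among the genes ranked, so their absence is uninformative. Cd79a ranked 21st (r = 0.929), Fcmr 31st (0.907) and Ighd 70th (0.863), while Ms4a1 ranked 1123rd (0.515). The ranking is a description, since over 7 samples and this many genes high values of r arise readily.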

How the data were processed

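RNA from sorted FDCs was sequenced after SMART-Seq v4 amplification and Nextera XT library preparation, per the labels' protocols. The authors deposited 1 table of TMM-scaled signal per gene and sample (TMM, trimmed mean of M values, per the file's name). The submitters' processing notes name bcl2fastq 2.20.0.422 and mm10; aligner, counter and annotation are not given in the sources used here. In all 7 samples 100% of values were whole multiples of 1 step (tolerance 0.01 reads), and dividing by it recovered the reads. Coordinates and merged exon lengths came from GENCODE M21 (GRCm38) by identifier, with 21118 of 21176 matched, and promoters from RefSeq.

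Ngfr KO was compared with WT by limma 3.58.1 in R 4.3.3 (lmFit, eBayes with trend) on log2(value + 1), over 8326 genes at 1 or more in at least 3 samples, with Benjamini-Hochberg adjustment over all of them and a threshold of 0.05. H2-Oa, Ciita and Ngfr, below the filter, were read from the same fit over 8329 genes. The pseudocount understates changes of low genes. Alternatives were other pseudocounts, filters and scalings, edgeR 4.0.16 and DESeq2 1.42.0 on recovered reads, thinned reads, array weights, replicate block, a B cell covariate, removal of the exon-length trend and leaving out each sample. On simulated data with 200 genes changed 4-fold, limma recovered 94.5% over 8138 genes (5.5% of 200 calls false) and edgeR 97.5% over 16891 genes (6.25% of 208 false). With no gene changed they called 2 and 1 genes. The simulation drew each gene independently, with the same dispersion for all, and changed 200 genes, where 2844 were called in the data. Its rates therefore need not hold for these samples.

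The samples are separate pools, so p-values measure the spread between pools. Reads are amplified without molecular identifiers, so read numbers cover counting error only. Members and lists were chosen with earlier results of these data known. Named genes are Ngfr, the members, up to 3 called genes per list and direction, every gene of a count of 5 or fewer, and the 10 most alike in pattern; other list genes were named after their values were seen. No row of the deposited data carried the symbol H2-Ea, Fcgr1 or Cd163, so these genes were not analysed. Some results of the transcription factor and the dendritic cell and macrophage lists are not reported here. T cell and reticular stroma lists were also read. Of 5 tested T cell markers, 0 were called by limma (edgeR 0 of 10). Of 10 stromal markers, 4 were called higher (Dcn, Des, Ccl19 and Pdgfra) and 0 lower. Limma called 18.3% of all tested genes higher and 15.8% lower.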

Additional observations from a re-analysis of the deposited data

Results flagged for a closer look

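In the WT group, 6 of 64 genes examined had 1 sample whose gap to the others exceeded Dixon's 95% critical value for 4 samples. For normally distributed values of genes picked blind, chance gives about 1 in 20, or 3.2. Some of these genes were named after their values were seen, so that rate need not hold here. H2-Aa in WT replicate 2 was 20.6, against 9.93 to 11.5 in the other WT samples, and this gap took 0.855 of the WT range. In the same sample the dendritic cell lectin Cd209a was 0.255, against at most 0.0117. In WT replicate 3 the immunoglobulin light chain gene Igkc was 180.0, against 9.52 to 15.4, Irf1 was 33.9, against 6.78 to 8.24, and Cd82 was 8.33, against 4.26 to 4.69. March1 in WT replicate 4 was 0.0343, far below the other WT samples, of which the highest was at 0.483. The 64 genes are those the text names with a value or a call, and groups of 3 were not examined.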

How the results depend on the processing

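The count of 3 members called higher lay between 2 and 4 in 19 of 20 alternatives. Leaving out 1 sample at a time gave 2 to 6 members, and without Ngfr KO replicate 3 it was 6, with H2-Aa, H2-DMa and H2-DMb2 added. No member was called lower in any of the 20, which include edgeR and DESeq2. H2-Ob, not called anywhere, changed sign with array weights (-0.06) and the B cell covariate (-0.19), without WT replicate 3 (-0.15) and without Ngfr KO replicate 2 (-0.23), within a range of -0.23 to 0.28 over left-out samples. Over all genes, 2844 were called, 535 with the stricter filter, which tested 1297 genes, and 4881 with array weights, where the cause was not tested. Leaving out single samples gave 1614 to 3006, with 1614 without Ngfr KO replicate 2, 1803 without Ngfr KO replicate 1 and 1870 without WT replicate 1. Higher calls were 53.7% of all calls, and 67.1% under the stricter filter. With the replicate number as a block, 4 members (H2-DMa added) and 2717 genes were called. Same-numbered samples did not deviate together in every pair (correlations 0.298, -0.059 and -0.011), so the numbers were not taken as pairs. Depth limits Ciita, H2-Oa and H2-Ob, which had as few as 21, 85 and 85 reads.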
